A study of Mus musculus with 12 samples.

Results

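NRF2, encoded by Nfe2l2, is a transcription factor that switches on antioxidant genes. It was examined here together with its inhibitor Keap1 and 8 of its well-known target genes in the mouse brain. The 10 genes were chosen by name from the pathway, with earlier results of these data known. The rule itself takes no measured value, and each gene had 1 entry among the 18962 genes of the table. Poly-A RNA was sequenced with strand-specific libraries from wild-type CBA/N mice, an inbred laboratory strain, whose brains were taken without the olfactory bulb and the cerebellum. Housing lasted 4 weeks and was winter-like, with 8 h light, 16 h dark and 10 °C, or summer-like, with 16 h light, 8 h dark and 30 °C. The 12 libraries form 4 groups of 3, namely winter females, summer females, winter males and summer males. Sex and season were read from letter codes in the descriptions (M and F, SC and LW), which the labels do not spell out. Light and temperature changed together and cannot be told apart. The age of the mice is not given. Nor do the labels say that each library came from its own animal, and a p-value here may thus reflect technical spread.

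In unstressed cells KEAP1 holds NRF2 in the cytoplasm and, through the CUL3 ubiquitin ligase, marks it for destruction. Oxidants and electrophiles modify cysteines of KEAP1, and NRF2 then enters the nucleus, pairs with small MAF proteins and binds antioxidant response elements. Much of this control acts on the protein, so the level of Nfe2l2 mRNA is a different quantity from NRF2 activity, and the mRNAs of the targets are the usual readout. In the brain the pathway is known mainly from astrocytes, which supply neurons with precursors of glutathione.

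The core of the antioxidant response element, TGACNNNGC, was searched on both strands of the promoter windows of RefSeq, which run from 250 bases before to 50 bases after a transcription start of GRCm38.p6. Windows were at hand for 7 of the 10 members (all but Hmox1, Gclc and Gsr), 9 windows in all, and 4 members had a match in 4 windows. Over all 27025 genes with a window, 13.99% had a match, and 12.4% of the 32851 windows. The 4 matches are shown because this is the letter pattern that the transcription factor of the group is known to bind; each is printed 5′ to 3′ on the strand of its gene with 10 bases on each side and the match in capitals. That of Nfe2l2 (minus strand, chr2:75704885-75704913) began 240 bases before the start, and that of Gclm (plus strand, chr3:122245413-122245441) 134 bases before it. That of Txnrd1 (plus strand, chr10:82859104-82859132) began 92 bases before 1 of its 3 listed starts, and that of Srxn1 (plus strand, chr2:152105542-152105570) 28 bases after the start. In Gclm, Txnrd1 and Srxn1 the match was on the opposite strand.
Nfe2l2: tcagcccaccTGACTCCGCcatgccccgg
Gclm: gctcccgggcGCACCGTCAactctcacga
Txnrd1: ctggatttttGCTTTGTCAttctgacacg
Srxn1: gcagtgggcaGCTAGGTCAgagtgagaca
The windows of Keap1, Nqo1 and Slc7a11 did not hold these letters. A match is a description of the sequence and was not measured as a binding site here.

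All 10 members were expressed in every library and passed the filter of at least 1 FPKM in at least 3 libraries, as did 13071 genes in all. Their mean levels over the 12 libraries, which FPKM puts on a per-length scale, spanned 13.9-fold. Srxn1 was the most abundant at 41.8 ± 1.81 FPKM (SD, n = 12), and its lowest library lay above every library of the next member. Txnrd1 followed at 22.3 ± 1.46, Keap1 at 18.7 ± 1.01, Gclc at 18.1 ± 1.12 and Gclm at 14.1 ± 1.23 FPKM, each overlapping with the next in that order. Gsr at 9.07 ± 0.469 FPKM was separate from its neighbours on either side. Slc7a11 at 6.85 ± 0.675 and Nfe2l2 at 6.59 ± 0.418 FPKM overlapped with each other, as did Nqo1 at 3.02 ± 0.434 and Hmox1 at 3.00 ± 0.398 FPKM. The coefficient of variation over the 12 libraries had a median of 6.44% for the members and 8.01% for all genes tested. It was highest for the lowest members, 14.3% for Nqo1 and 13.3% for Hmox1, and lowest for Srxn1 at 4.34%.

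**Figure D1:**
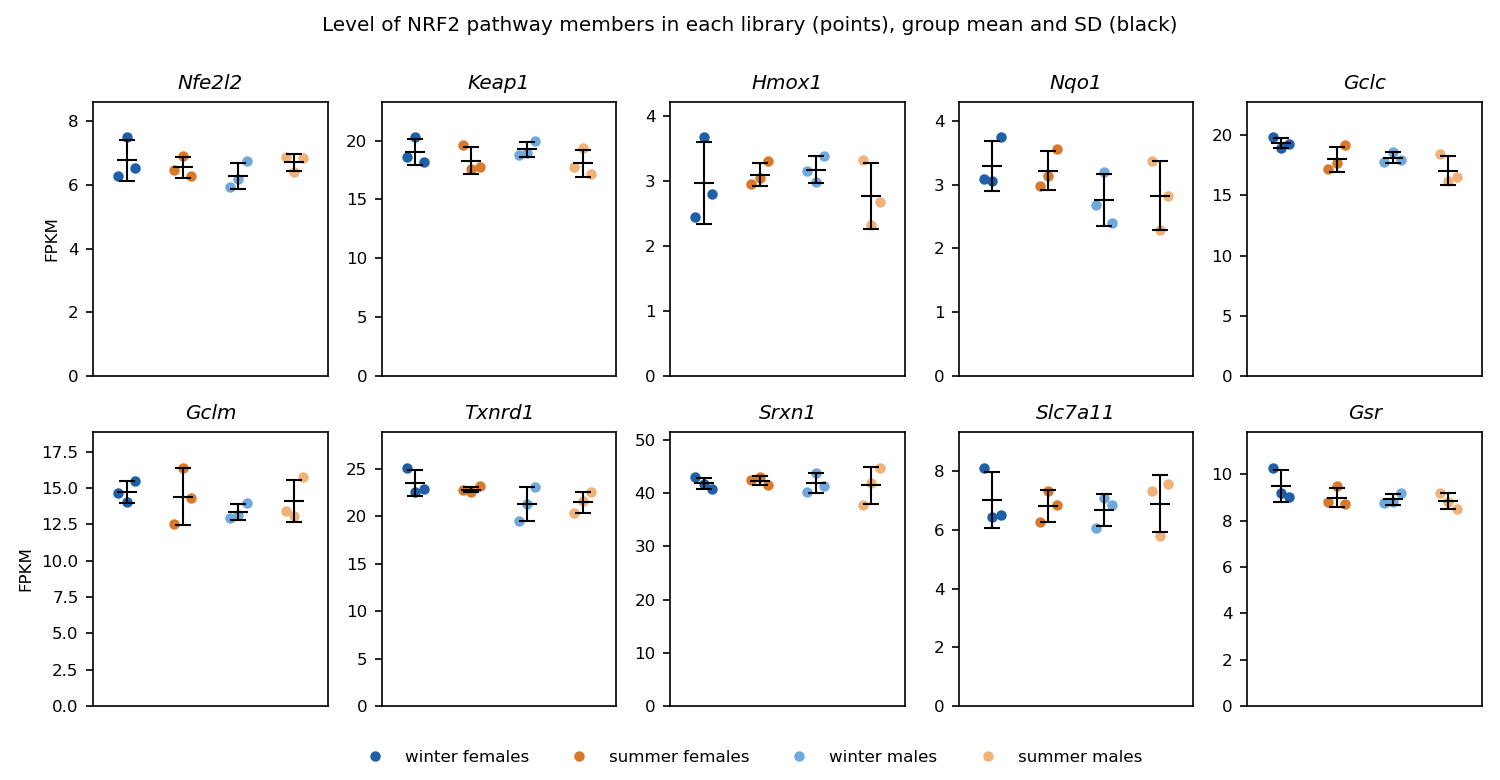
FPKM (vertical axes, starting at 0) of the 10 members in each of 12 libraries (points), with the group mean and SD (n = 3) in black, for winter females, summer females, winter males and summer males from left to right. In each panel the winter points overlap with the summer points. Nfe2l2, for example, lay between 5.95 and 7.5 FPKM in winter and between 6.28 and 6.91 FPKM in summer.

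The libraries showed the markers of brain. The summed level of 5 neuronal markers lay between 2314 and 2649 FPKM and that of 7 astrocyte markers between 828.2 and 884.5 FPKM in the 12 libraries. Sums of 8 markers of microglia and macrophages, in which Hmox1 is known to be inducible, were between 77.1 and 89.8 FPKM. Pcp2, a gene of cerebellar Purkinje cells, stood at 24.86 FPKM in male winter replicate 1 and at 2.05 FPKM or less in each other library. The GC trend of a library, the Spearman correlation across genes of transcript GC content with the library's deviation from the mean, was strongest at -0.60 in replicate 1 of winter females and at -0.66 in replicate 3 of summer females. In bulk tissue, fewer cells of a type and less RNA per cell cannot be told apart.

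For neither the transcription factor nor its inhibitor was a season difference beyond the spread of the libraries detected. Nfe2l2 (gene 18024, chr2:75675513-75704663) stood at 6.28, 7.5 and 6.54 FPKM in winter females, against 6.48, 6.91 and 6.28 FPKM in summer females. In males it stood at 5.95, 6.19 and 6.75 FPKM in winter, against 6.89, 6.41 and 6.85 FPKM in summer. The highest library was a winter female and the lowest a winter male, so the winter values enclosed all summer values. The winter minus summer difference over both sexes was -0.02 ± 0.05 on the log2(FPKM + 1) scale (SE; limma, adjusted p = 0.997), with a 95% confidence interval from -0.13 to 0.09.

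Keap1 (gene 50868, chr9:21229730-21239332), the sensor that targets NRF2 for destruction, stood at 18.64, 20.28 and 18.21 FPKM in winter females, against 19.6, 17.56 and 17.75 FPKM in summer females. In males it stood at 18.8, 18.97 and 20 FPKM in winter, against 17.72, 19.37 and 17.15 FPKM in summer. The mean was higher in winter in each sex, but the groups overlapped in each sex. The difference was 0.07 ± 0.05 (log2, SE; limma, adjusted p = 0.997). Within a library Keap1 exceeded Nfe2l2 on the FPKM scale by 2.70 to 3.16 times in winter and by 2.50 to 3.02 times in summer.

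Of the 10 members, limma called 0 for season over both sexes, and 0 had an unadjusted p under 0.05. With no filter 1 member, Gclc, fell under 0.05, beside 976 of 18498 genes. Gclc also did so without male summer replicate 1 and without both libraries with the strongest GC trend. Without female summer replicate 3, 1 member did so. These fits had 520 to 773 of 13071 genes under 0.05. With the GC correction 1 member, again Gclc, did so, beside 888 of 12935 genes (1024 with the replicate block). Over all genes tested 0.00765% were called for season, which is 1 gene (2 without male winter replicate 2 and 3 without male summer replicate 1), and 4.88% had an unadjusted p under 0.05. The members' differences ran from -0.02 to 0.09 on the log2 scale with a median of 0.0066, against a median of -0.0030 over all genes tested. Positive values were found for 6 of 10 members and for 47.9% of all genes. The sign of Nqo1 turned with either other scaling, which left 5 of 10 positive, and with the correction for GC content 8 of 10 were positive. In FPKM + 1, a scale that understates the change of low genes, the 95% confidence intervals bound a season difference at 1.07-fold for Srxn1. That was the smallest bound of the members, and the largest was 1.17-fold for Hmox1. For 0 of 10 members did winter and summer libraries separate without overlap, as they did for 0.283% of all genes.

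Among the genes of glutathione synthesis, Gclc came closest to a difference without passing. It encodes the catalytic subunit of glutamate-cysteine ligase, the rate-limiting enzyme of glutathione synthesis (gene 14629, chr9:77754535-77794489). Gclc stood at 19.83, 18.96 and 19.32 FPKM in winter females, against 17.19, 17.69 and 19.16 FPKM in summer females. In males it stood at 17.8, 18.65 and 17.96 FPKM in winter, against 18.42, 16.21 and 16.56 FPKM in summer. In each sex 1 summer library, female replicate 3 and male replicate 1, reached into the winter range. The difference was 0.09 ± 0.04 (log2, SE), or 1.07-fold in FPKM + 1. By limma it had an unadjusted p of 0.0536 and an adjusted p of 0.997. It lay between 0.0759 and 0.119 when each library was left out in turn.

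Gclm (gene 14630, chr3:122245487-122267215) encodes the modifier subunit that raises the activity of the enzyme. It stood at 14.69, 14.03 and 15.51 FPKM in winter females, against 12.55, 16.4 and 14.3 FPKM in summer females, and at 12.93, 13.15 and 13.96 FPKM in winter males, against 13.42, 13.1 and 15.75 FPKM in summer males. Summer held both the highest and the lowest library, and the difference was -0.02 ± 0.06 (log2, SE; limma, adjusted p = 0.997). The ratio of Gclc to Gclm within a library averaged 1.34 ± 0.0623 in winter and 1.24 ± 0.146 in summer (SD, n = 6 each), with overlapping ranges of 1.25 to 1.42 and 1.05 to 1.37.

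Slc7a11 (gene 26570, chr3:50364936-50499087) encodes xCT, the cystine-glutamate exchanger that brings in cystine for glutathione. It stood at 8.12, 6.44 and 6.51 FPKM in winter females, against 6.27, 7.34 and 6.86 FPKM in summer females, and at 6.06, 7.1 and 6.84 FPKM in winter males, against 7.33, 5.8 and 7.57 FPKM in summer males. Each range covered most of the other, and the difference was -0.0030 ± 0.07 (log2, SE; limma, adjusted p = 0.999). Gsr (gene 14782, chr8:33653238-33698162), glutathione reductase, regenerates reduced glutathione. It ranged from 8.75 to 10.28 FPKM with a median of 9.1 in winter, against 8.52 to 9.47 FPKM with a median of 8.81 in summer, and the difference was 0.04 ± 0.05 (log2, SE; limma, adjusted p = 0.997). Its highest value came from female winter replicate 1, with 9.21 FPKM the highest of the other winter libraries, and without that library the difference was 0.0136.

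Both members of the thioredoxin arm had season differences near 0. Txnrd1 (gene 50493, chr10:82833951-82897724), cytosolic thioredoxin reductase, ranged from 19.49 to 25.14 FPKM with a median of 22.8 in winter, against 20.36 to 23.16 FPKM with a median of 22.6 in summer. Its difference was 0.01 ± 0.05 (log2, SE; limma, adjusted p = 0.997). Srxn1 (gene 76650, chr2:152105524-152111376), sulfiredoxin, which repairs over-oxidised peroxiredoxins, ranged from 40.15 to 43.82 FPKM in winter, against 37.77 to 44.74 FPKM in summer. Its difference was -0.0016 ± 0.04 (log2, SE; limma, adjusted p = 0.999), with a 95% confidence interval from -0.10 to 0.09.

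Hmox1 and Nqo1, the classic inducible targets, were the lowest members in these brains. Hmox1 (gene 15368, chr8:75093618-75100593), haem oxygenase 1, breaks down haem. It stood at 2.44, 3.67 and 2.8 FPKM in winter females, against 2.95, 3.04 and 3.3 FPKM in summer females, and at 3.15, 2.98 and 3.39 FPKM in winter males, against 3.32, 2.32 and 2.67 FPKM in summer males. The lowest winter library and the highest winter library were both female. Its season difference was -0.06 ± 0.11 in females and 0.15 ± 0.11 in males (log2, SE; limma, adjusted p = 1 and 0.974). The female minus male season effect of Hmox1 was -0.21 ± 0.16, with a 95% confidence interval from -0.56 to 0.13 (limma, adjusted p = 0.999), so a difference between the sexes was not shown. With each library left out in turn the interaction lay between -0.333 (without female winter replicate 2) and -0.113 (without female winter replicate 1), and the male value between 0.0666 (without male summer replicate 2) and 0.257 (without male summer replicate 1). Without both libraries with the strongest GC trend the interaction was -0.0774 and the female value 0.0766. Nqo1 (gene 18104, chr8:107388225-107403205), a quinone reductase, ranged from 2.39 to 3.74 FPKM in winter, against 2.29 to 3.56 FPKM in summer, and its difference was 0.00045 ± 0.08 (log2, SE; limma, adjusted p = 0.999).

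Within each sex limma likewise called 0 of the 10 members for season, and 0 had an unadjusted p under 0.05. Over all genes 0% were called in females and 0.00765% in males, with 1.74% and 5.01% at an unadjusted p under 0.05. Without female summer replicate 3, 1 member fell under 0.05 in females, beside 357 of 13071 genes. Without male summer replicate 1, 1 member, Hmox1, did so in males, beside 818 of 13071 genes. Differences ran from -0.06 for Hmox1 to 0.10 for Gclc in females, and from -0.08 for Nfe2l2 to 0.15 for Hmox1 in males. Winter and summer libraries separated for 0 of 10 members in each sex, beside 4.2% of all genes in females and 12.6% in males. For the female minus male season effect 0 of 10 members and 0% of all genes were called, and 0 members had an unadjusted p under 0.05 beside 1.8% of all genes. Without female winter replicate 2, 1 member fell under 0.05, beside 340 of 13071 genes. The intervals within 1 sex were wider. A season difference in FPKM + 1 of up to 1.23-fold in females or 1.32-fold in males lay inside that of Hmox1. In males the summed levels of some marker lists separated as well. For 7 mural, fibroblast and meningeal markers they were 28.9 to 32.0 FPKM in winter and 34.9 to 35.3 FPKM in summer, and for 3 markers of oligodendrocyte precursors 18.9 to 22.9 and 23.7 to 27.2 FPKM. Their part in the members' values was not tested.

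**Figure D2:**
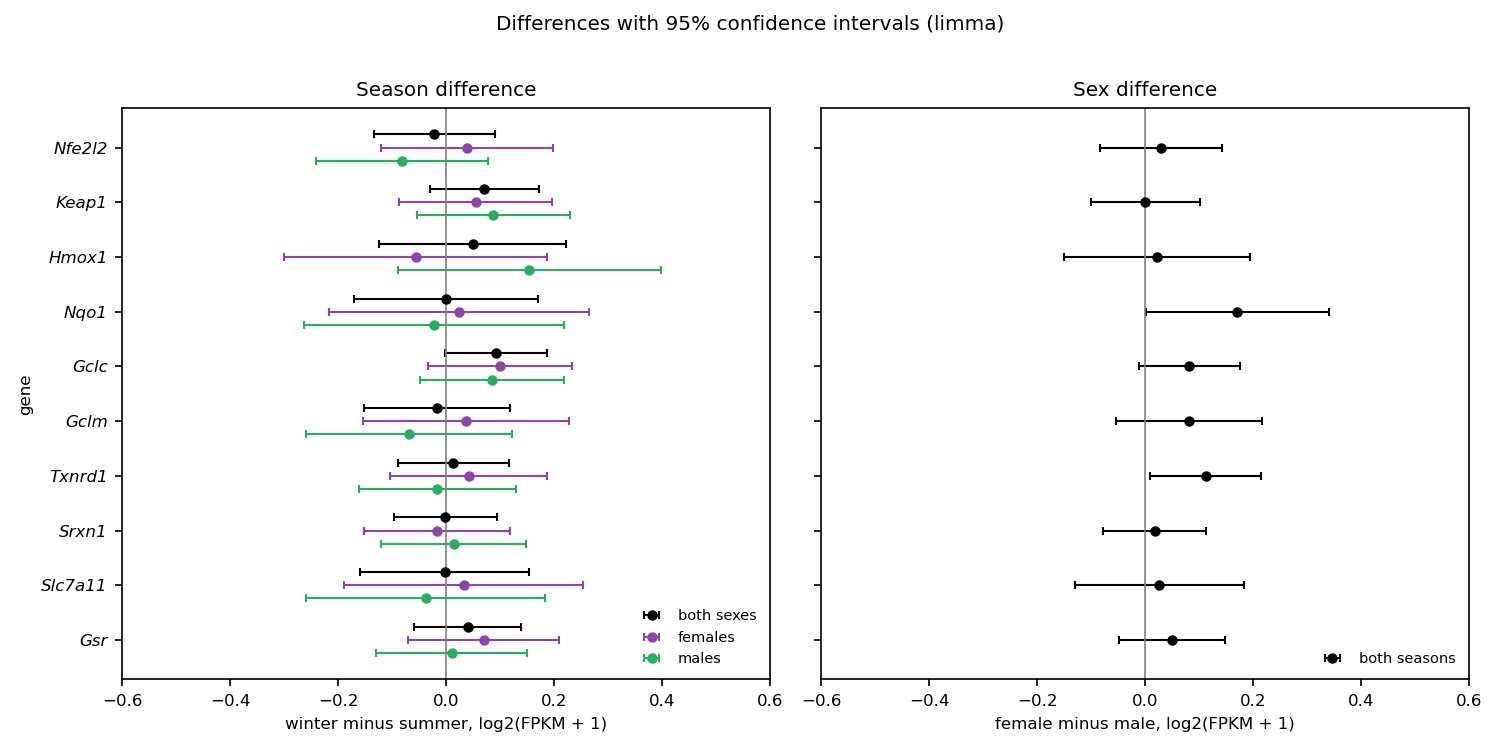
Differences on the log2(FPKM + 1) scale (horizontal axes) for the 10 members (vertical axis), as points with 95% confidence intervals from limma. Left, winter minus summer over both sexes (black), in females (purple) and in males (green), where every interval includes 0; right, female minus male over both seasons, where the intervals of Nqo1 and Txnrd1 lie just above 0.

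Between the sexes the members leaned to higher values in females, although none passed the test over all genes. How many had an unadjusted p under 0.05 depended on which libraries were kept. Txnrd1 stood at 25.14, 22.61 and 22.93 FPKM in winter females and at 22.79, 22.56 and 23.16 FPKM in summer females. In males it stood at 19.49, 21.31 and 23.08 FPKM in winter and at 20.36, 21.61 and 22.57 FPKM in summer. Of the male libraries, winter replicate 3 and summer replicate 3 reached into the female range. The female minus male difference was 0.11 ± 0.05 (log2, SE), or 1.08-fold in FPKM + 1. By limma it had an unadjusted p of 0.0345 and an adjusted p of 0.42. It lay between 0.0828 and 0.141 when each library was left out in turn.

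Nqo1 stood at 3.09, 3.05 and 3.74 FPKM in winter females and at 2.97, 3.13 and 3.56 FPKM in summer females. In males it stood at 2.68, 3.2 and 2.39 FPKM in winter and at 3.37, 2.29 and 2.82 FPKM in summer. Of the male libraries 2 lay inside the female range and the other 4 below it. The mean was 3.26 FPKM in females and 2.79 FPKM in males. The difference was 0.17 ± 0.08 (log2, SE), or 1.13-fold in FPKM + 1. By limma it had an unadjusted p of 0.0488 and an adjusted p of 0.428. It lay between 0.119 and 0.222 when each library was left out in turn.

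For sex, limma called 0 of 10 members, and 0.0612% of all genes tested, 0.023% as higher in females. Without female summer replicate 1 it called 136 genes in place of 8, with 0 members among them. An unadjusted p under 0.05 was found for 2 of 10 members, both higher in females, beside 11.6% of all genes, with 6.41% of all genes higher in females. That number was 0 once male winter replicate 1 was dropped, and also once library 2 of the summer males was. Omitting female summer replicate 3, alone or together with female winter replicate 1, gave 0 as well. These fits had 861 to 1140 of 13071 genes under 0.05. The number was 1 with the GC correction or either other scaling. It was 4 when female summer replicate 1 was dropped, beside 2831 genes. All 10 members had positive female minus male values, beside 55.3% of all genes, and their median was 0.04 against 0.01 on the log2 scale. The sign was negative for Keap1 with quantile normalization and for Nfe2l2 and Slc7a11 with the GC correction, under which 8 of 10 were positive, and 7 to 10 were positive when each library was left out in turn. The values for Keap1 and Srxn1 were near 0 in the first place, at 0.00036 ± 0.05 and 0.02 ± 0.04. Female and male libraries separated for 0 of 10 members and for 0.643% of all genes. The GC trend ran from -0.66 to 0.47 in the female libraries and from -0.18 to 0.55 in the male libraries. With the GC correction the members' median was 0.035 in place of 0.04. The summed level of 3 blood markers was 66.6 to 217 FPKM in females and 162.5 to 238.5 FPKM in males. What part the trend or the blood markers had in these values was not tested.

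In the wider pathway no gene passed the test between seasons either. Of 75 further genes in 7 lists, 70 were tested, limma called 0 of them in a season contrast, and 1 had an unadjusted p under 0.05 for season over both sexes, beside 0.00765% and 4.88% of all genes. That gene was Glrx, glutaredoxin, which reduces protein-glutathione disulfides, at 38.7 ± 1.69 FPKM in winter and 36.5 ± 1.04 FPKM in summer (SD, n = 6 each). Its difference was 0.08 ± 0.04 (log2, SE; limma, unadjusted p = 0.045 and adjusted p = 0.997). Maff, Ggt1, Gsta3, Osgin1 and Trib3 were below the filter.

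Among 10 tested genes that control NRF2 or share its binding sites, 5 had positive and 5 negative season differences, with a median of -0.00018. Btrc, a subunit of another ubiquitin ligase that degrades NRF2, had -0.08 ± 0.04, and Mafk, a small MAF partner, had 0.09 ± 0.06 (log2, SE). Nfe2l3, a relative of NRF2, had 0.15 ± 0.09, at 2.10 ± 0.264 FPKM in winter and 1.79 ± 0.358 FPKM in summer (SD, n = 6 each). None passed limma's test (adjusted p = 0.997 each).

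Glutathione genes had a median of 0.03, with 11 of 17 positive. Slc3a2, the heavy chain that partners xCT at the membrane, had 0.10 ± 0.06, and Ggt7, of the gamma-glutamyltransferase family, had 0.10 ± 0.07 (log2, SE). Thioredoxin and peroxiredoxin genes had a median of 0.0077 with 7 of 12 positive. In that list the mitochondrial peroxiredoxin Prdx3 had 0.05 ± 0.04, Txnrd3 had 0.07 ± 0.06 and the cytosolic peroxiredoxin Prdx2 had -0.05 ± 0.04.

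Of the enzymes that supply NADPH, 5 of 6 were positive with a median of 0.02. Pgd, of the pentose phosphate pathway, had 0.12 ± 0.07, the malic enzyme Me1 had 0.04 ± 0.05, and G6pdx, which starts the pentose phosphate pathway, had 0.02 ± 0.05 (log2, SE). Iron, haem and carbonyl targets had a median of 0.0033 with 8 of 12 positive. Among these the carbonyl reductase Cbr3 had -0.14 ± 0.09, and the biliverdin reductases Blvrb and Blvra had 0.08 ± 0.06 and 0.05 ± 0.06. Within males Blvrb had 0.21 ± 0.09 (log2, SE; limma, unadjusted p = 0.0303 and adjusted p = 0.972), and in females -0.05 ± 0.09. It was the 1 gene of this list under 0.05 in males, beside 5.01% of all genes. The difference of Blvrb between the sexes had an adjusted p of 0.999 by limma. Of the 4 enzymes that remove superoxide and peroxide, 1 was positive, with Sod1 at -0.05 ± 0.04, Sod2 at -0.04 ± 0.04 and catalase, encoded by Cat, at 0.04 ± 0.04.

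Atf4, which encodes a stress factor that also drives Slc7a11, and its targets had the highest list median at 0.06, with 8 of 9 positive, and 7 of the 8 targets without Atf4 itself. The amino acid transporter Slc7a5 had 0.12 ± 0.06, Asns, which makes asparagine, had 0.06 ± 0.04, and Ddit4, an inhibitor of mTORC1, had 0.10 ± 0.06 (log2, SE). Asns stood at 51.9 ± 1.73 FPKM in winter and 49.8 ± 1.34 FPKM in summer (SD, n = 6 each). Limma called 0 of these 9. An unadjusted p under 0.05 was found for 0 of them over both sexes and in females, beside 4.88% and 1.74% of all genes, and for 2 in males, Slc7a5 and Phgdh, beside 5.01%. Slc7a5 had 0.03 ± 0.08 in females and 0.21 ± 0.08 in males (log2, SE; limma, adjusted p = 1 and 0.972), and its difference between the sexes had an adjusted p of 0.999.

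**Figure D3:**
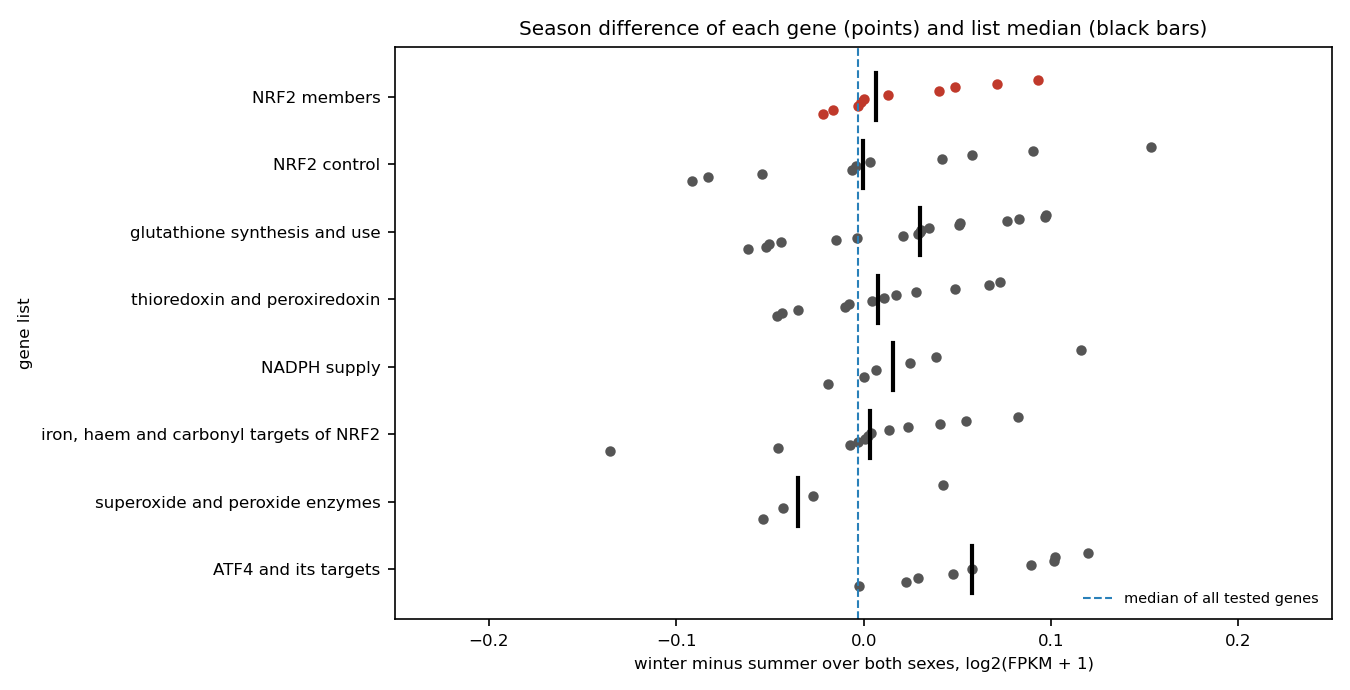
Winter minus summer differences over both sexes on the log2(FPKM + 1) scale (horizontal axis) for each tested gene of the 10 members (red points) and of 7 further lists (grey points), with list medians as black bars. The dashed line marks the median of all genes tested, -0.0030; list medians lie between -0.03 for superoxide and peroxide enzymes and 0.06 for ATF4 and its targets.

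The correlations between members varied in sign and size, and none passed the test. Over the 45 pairs of members, Pearson's r across the 12 libraries ran from -0.60 to 0.69 with a median of 0.17, and 31 pairs were positive. With the GC correction the median was 0.081 and 26 pairs were positive. Permutation tests adjusted over the 45 pairs called 0 of them, and 2 had an unadjusted p under 0.05. The pair with the highest r was Nqo1 with Gclc, at r = 0.69 (permutation p = 0.0131, adjusted p = 0.529) and rho = 0.69 (permutation p = 0.0179, adjusted p = 0.399). Its r was 0.63 without the 2 libraries farthest from the median of Nqo1, 0.73 within winter and 0.94 within summer. Keap1 with Gclm had r = -0.60 (permutation p = 0.0423, adjusted p = 0.529) and rho = -0.62 (permutation p = 0.0364, adjusted p = 0.409), and -0.59 without the 2 libraries farthest from the median of Keap1. Within winter its r was -0.31 and within summer -0.82.

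For Nfe2l2 no pair with a target passed the test. Across the 12 libraries its r was 0.42 with Hmox1, 0.38 with Gclm, 0.19 with Txnrd1 and between -0.04 and 0.15 with the other 6 members. With Hmox1 its r was 0.62 within winter and 0.15 within summer, 0.69 in females and 0.10 in males. It was 0.72 once the 4 group means were removed. With them kept, it was 0.32 without the 2 libraries farthest from the median of Nfe2l2. Female winter replicate 2 was the highest library for both genes, at 7.5 and 3.67 FPKM. The genes most like Nfe2l2 among all tested were Tuft1, Pgm2, Disp1, AA986860 and Chat, with r from 0.81 to 0.87. The 12 libraries share depth and base composition effects. Among the genes most like Slc7a11 were U2af1, Hook3, Cdv3 and Timmdc1, with r from 0.88 to 0.94. Both sets were picked for the highest r among the 13071 genes tested, and these r were not tested. Gclm, the member most like Slc7a11, had r = 0.55.

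Keap1, Slc7a11 and Gclm followed the GC trend of the library by rank. No member did so by Pearson's r after adjustment over the 10 members. Following the trend was not particular to these members. The median r with it was -0.49 over 6567 tested genes under 50% GC and 0.42 over 6368 genes at or above 50%. The share of all genes that would pass the same test was not computed. Keap1, whose longest transcript has 58.0% GC, was higher in libraries with a positive trend, at r = 0.67 and rho = 0.75 over 12 libraries (permutation p = 0.0179 and 0.00748, adjusted over 10 members p = 0.0895 and 0.0374). Slc7a11, with 40.7% GC, had r = -0.69 and rho = -0.71 (permutation p = 0.0139 and 0.0132, adjusted p = 0.0895 and 0.0441). Gclm, with 42.1% GC, had r = -0.60 and rho = -0.75 (permutation p = 0.0397 and 0.00647, adjusted p = 0.0993 and 0.0374), and Nqo1, with 46.7% GC, had r = -0.61 and rho = -0.65 (permutation p = 0.0353 and 0.0262, adjusted p = 0.0993 and 0.0655). The other 6 members had adjusted p of 0.169 or more for r.

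Without the 2 libraries farthest from the median trend, r was 0.84 for Keap1, -0.71 for Slc7a11, -0.79 for Gclm and -0.61 for Nqo1. Within winter these were 0.56, -0.78, -0.54 and -0.59, and within summer 0.79, -0.62, -0.66 and -0.65. The trend was computed from all genes, of which the members are a few, and 85.1% of 6567 tested genes under 50% GC had a negative r with the trend, against 22.5% of 6368 genes at or above 50%. After the GC correction the r of Keap1 with Gclm was -0.34 in place of -0.60, and that of Nqo1 with Gclc was 0.59 in place of 0.69. Other pairs had a higher r with the correction, among them Keap1 with Txnrd1 at 0.66 in place of 0.05. Keap1 with Gsr had 0.53 in place of 0.10, and Keap1 with Gclc had 0.53 in place of 0.01. After the correction female winter replicate 1 was the highest library for Keap1, Txnrd1 and Gsr, and its part in these r was not tested. Permutation tests on the corrected values called 0 of 45 pairs. With the correction limma again called 0 of 10 members in each of the 5 contrasts for season and sex.

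**Figure D4:**
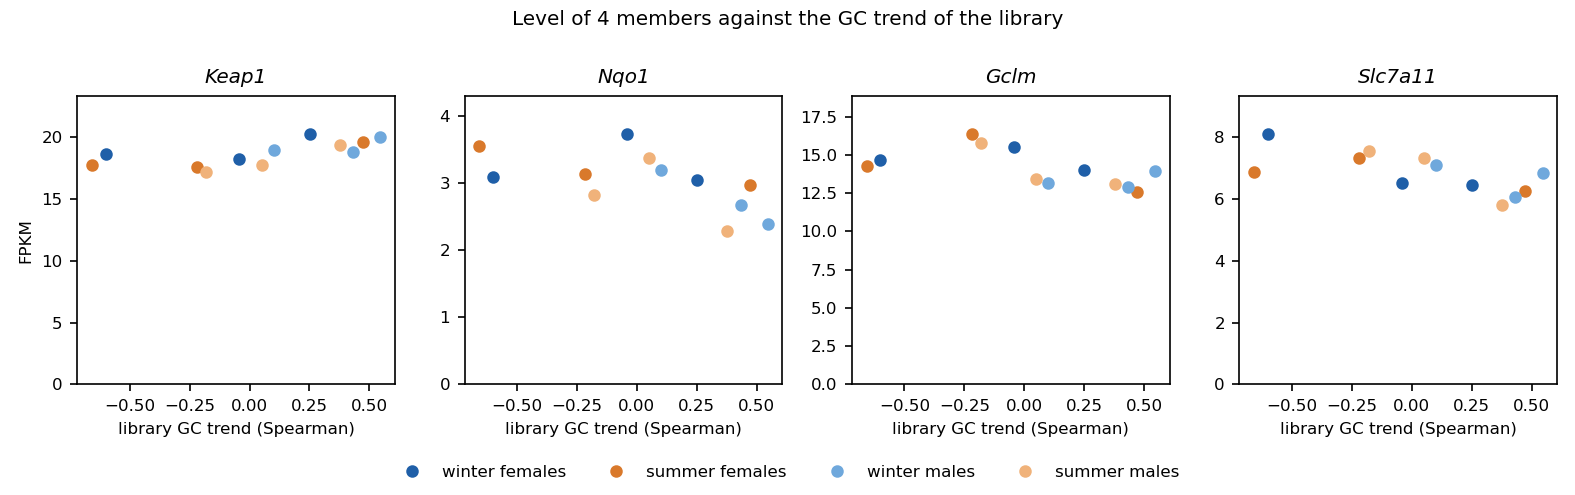
FPKM (vertical axes, starting at 0) of Keap1, Nqo1, Gclm and Slc7a11 against the GC trend of each of the 12 libraries (horizontal axes, Spearman correlation across genes of transcript GC content with the library's deviation from the mean), coloured by group. Keap1 is higher and Nqo1, Gclm and Slc7a11 are lower in libraries with a positive trend, with r of 0.67, -0.61, -0.60 and -0.69.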

How the data were processed

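Expression values of 18962 genes in 12 libraries were deposited by the authors as FPKM, fragments scaled to transcript length and to the library's mapped fragments, with 2 decimals (unit per the file headers). The submitters' processing notes name HISAT and RSEM as tools and GRCm38.p6 as build, without tool versions. A further 2 lines without values were not used. For genes with 1 transcript, 35.1% of 4543 low values fell, within rounding, on a whole multiple of the lowest value of that gene, where chance gives 31.1%. Whole reads were therefore not recovered, the read depth is unknown, and no counting interval can be given.

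Values were analysed as log2(FPKM + 1), a scale that understates the change of low genes. A gene was tested if 3 or more of the 12 libraries held 1 FPKM or more. The 13071 such genes were fitted in 1 limma model with 4 group means, 8 residual degrees of freedom and trended empirical Bayes variances. Tests were two-sided, with Benjamini-Hochberg adjustment over all genes tested at 0.05, in limma 3.58.1 under R 4.3.3. Simulated data with known changes were used to test the fit. Correlations over libraries used permutation tests with 100000 resamples. Python 3.11.15, pandas 2.3.3, numpy 2.4.6, scipy 1.17.1 and matplotlib 3.10.9 were used. Promoter windows came from the RefSeq table of GRCm38.p6, and transcript GC content from the longest GENCODE transcript of a gene.

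The members and lists were chosen with earlier results of these data known. Every member was named in every contrast, with the 3 smallest p-values of each pathway list for season and the 5 genes most like Nfe2l2 and Slc7a11, of which 1 is not reported here. The alternatives were a pseudocount of 0.1, no filter, 2 scalings, a constant variance, a replicate block, fits within 1 sex, leaving out each library in turn, and omitting both female libraries whose GC trend was strongest. A GC correction by lowess (span 0.3, fitted in each library) was added after seeing the data.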

Additional observations from a re-analysis of the deposited data

Results flagged for a closer look

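Gsr in female winter replicate 1 stood apart from the other winter libraries, at 10.28 FPKM against 8.75 to 9.21 FPKM in the other 5. It was the 1 library to do so in the 20 member and season groups examined, and chance marks about 1 in 20. The season difference of Gsr was 0.04 with all libraries, 0.0136 without female winter replicate 1 and 0.00348 without both libraries with the strongest GC trend. Limma called it under none of the alternatives run.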

How the results depend on the processing

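Limma called 0 of 10 members in each of the 5 contrasts under every alternative run, with adjusted p from 0.215 to 1. The pairs of members gave 0 calls under each alternative run. The replicate block left 1 gene called for season and gave 12 in place of 8 for sex over all genes. Same-numbered libraries of different groups correlated between -0.229 and 0.242, and 4 of 12 libraries correlated best with their own number, so the numbers were not taken as pairs. The number of genes called for season over all genes was 2 with the GC correction and 4 with that correction and the replicate block, against 1. Leaving out 1 library gave 1 to 3 genes for season, 0 to 1 in females (1 without female summer replicate 2), 1 to 3 in males (for both ranges 2 without male winter replicate 2, 3 without male summer replicate 1) and 8 to 136 for sex (136 without female summer replicate 1). The causes were not tested.

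Each sign that turned belonged to a value that limma did not call, of at most 0.0704 in size. Upper quartile scaling gave -0.00148 for the season difference of Nqo1. Quantile normalization gave -0.00352 for that of Nqo1 and -0.00265 for the sex difference of Keap1. Without both libraries with the strongest GC trend, Txnrd1 had -0.00518 for season, Hmox1, Slc7a11 and Gsr had 0.0766, -0.0589 and -0.00357 in females, Slc7a11 and Gsr had -0.0207 and -0.0141 for the interaction, and Slc7a11 had -0.0237 for sex. With the GC correction, with or without the replicate block, Gclm and Slc7a11 had 0.00389 and 0.0205 for season, Slc7a11 had 0.00435 in males, Keap1 and Gclc had 0.02 and -0.00257 for the interaction, and Nfe2l2 and Slc7a11 had -0.00684 and -0.0303 for sex.

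Leaving out each library in turn moved the season difference of Nfe2l2 from -0.0546 to 0.00123, Hmox1 from -0.0126 to 0.1, Nqo1 from -0.0516 to 0.0507, Gclm from -0.061 to 0.0292, Txnrd1 from -0.0158 to 0.0424, Srxn1 from -0.0334 to 0.0262, Slc7a11 from -0.0552 to 0.0282 and Gsr from 0.0136 to 0.0571. In females the ranges were -0.0276 to 0.0841 for Nfe2l2, -0.179 to 0.0412 for Hmox1, -0.0498 to 0.0807 for Nqo1, -0.0526 to 0.128 for Gclm, -0.004 to 0.0694 for Txnrd1, -0.0351 to 4.88e-05 for Srxn1 and -0.0635 to 0.0834 for Slc7a11. In males they were -0.127 to 0.078 for Nqo1, -0.116 to 0.00815 for Gclm, -0.0733 to 0.0432 for Txnrd1, -0.0497 to 0.0696 for Srxn1, -0.143 to 0.0242 for Slc7a11 and -0.0138 to 0.0367 for Gsr. For the interaction they were -0.0812 to 0.0146 for Keap1, -0.0544 to 0.15 for Nqo1, -0.0377 to 0.0585 for Gclc, -0.00143 to 0.115 for Txnrd1, -0.0867 to 0.0326 for Srxn1 and -0.0252 to 0.175 for Slc7a11. For sex they were -0.0035 to 0.0524 for Nfe2l2, -0.0235 to 0.0244 for Keap1, -0.0392 to 0.0736 for Hmox1, -0.0142 to 0.0454 for Srxn1 and -0.0259 to 0.0576 for Slc7a11.

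Read depth is unknown, there are 3 libraries a group, and the levels of Hmox1 and Nqo1 are near 3 FPKM.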

Other observations

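Female winter replicate 1 had the highest level of 4 of the 10 members among the 12 libraries, namely Gclc, Txnrd1, Slc7a11 and Gsr, and it was the highest library for 17.4% of all genes tested. With the GC correction it was the highest for Keap1, Txnrd1, Slc7a11 and Gsr. Female winter replicate 2 was the highest for Nfe2l2, Keap1 and Hmox1, beside 4.28% of all genes. For 8 of the 10 members the highest library was a winter female, beside 27.5% of all genes tested, and for 0 it was a winter male, beside 21.5%. These libraries were singled out after their values were seen, and no test was made.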
